A study of Mus musculus with 9 samples.

Results

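The genes described here are the mouse embryonic globin genes and 6 factors of globin switching, measured in hematopoietic stem cells (HSCs) with and without Bcl11a. The 4 globin genes are Hbb-y, Hbb-bh1, Hbb-bh2 and Hba-x, and the 6 factors are Klf1, Gata1, Zbtb7a, Sox6, Myb and Lin28b. These 10 genes were named for their known roles, and for each the probe set with a single gene symbol and the highest mean over 9 arrays was used. They are 10 of the 22180 genes that such a probe set represents. HSCs came from bone marrow of mice aged 6 to 8 months that carried a floxed Bcl11a gene, and all 3 genotypes were injected 5 times with poly(I:C), an RNA mimic that triggers interferon and thereby Mx1-Cre. The WT group was Bcl11a fl/fl without Mx1-Cre, the Het group was Bcl11a fl/wt with Mx1-Cre, and the KO group was Bcl11a fl/fl with Mx1-Cre. Each group had 3 biological replicates and 1 array per replicate. Mx1-Cre is driven by an interferon-responsive promoter and recombines many cell types besides HSCs, and since no WT mouse carried Cre, effects of Cre and of Bcl11a loss cannot be told apart in comparisons with WT. Het and KO both carried Cre. The sorted cells were lineage-negative, Sca-1+ and Kit+, CD48-, Flt3- and CD150+, and were YFP+ or YFP-. The labels do not tell the YFP status of single arrays.

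Globin switching is the replacement of embryonic and fetal globin chains by adult ones as red cells develop. In mice Hbb-y and Hbb-bh1 encode the β-like chains and Hba-x the ζ, or α-like, chain of primitive red cells of the yolk sac. BCL11A is a zinc-finger repressor that shuts off the embryonic β-like genes in definitive red cells, where SOX6 and ZBTB7A act as further repressors, KLF1 and GATA1 drive erythroid genes, and MYB and LIN28B influence the timing of the switch. HSCs lie upstream of the red cell lineage, so the question these samples can address is which of the genes can be detected in HSCs at all and whether their levels differ among the 3 genotypes.

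The promoters of Hbb-y, Hba-x and Hbb-bh2 are shown because these are the globins matched to a promoter sequence, and that of Klf1 because it is the erythroid activator of the group. Each line gives the 120 bases before the start site of transcription in RefSeq (GRCm38.p6), read 5′ to 3′ on the gene's own strand. Capitals mark TGACCA, the motif bound by BCL11A, CACCC, the motif bound by KLF1, and the CCAAT box. Hbb-y lies at chr7:103853208-103853327 on the minus strand, Hbb-bh2 at chr7:103840522-103840641 on the minus strand, Hba-x at chr11:32276480-32276599 on the plus strand and Klf1 at chr8:84901862-84901981 on the plus strand.
Hbb-y: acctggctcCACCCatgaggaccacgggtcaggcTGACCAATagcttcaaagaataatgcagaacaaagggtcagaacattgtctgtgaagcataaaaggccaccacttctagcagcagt
Hba-x: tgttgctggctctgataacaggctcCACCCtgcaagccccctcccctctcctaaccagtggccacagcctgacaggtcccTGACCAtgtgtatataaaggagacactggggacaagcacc
Hbb-bh2: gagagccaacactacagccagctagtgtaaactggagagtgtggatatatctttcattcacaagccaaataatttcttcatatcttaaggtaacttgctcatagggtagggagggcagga
Klf1: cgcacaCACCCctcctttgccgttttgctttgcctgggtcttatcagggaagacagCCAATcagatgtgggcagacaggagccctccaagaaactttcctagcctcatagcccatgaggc

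In Hbb-y the capitals TGACCAAT join a TGACCA at -86 to -81 from the start site and a CCAAT at -83 to -79, which share 3 bases. Hba-x held a TGACCA at -40 to -35 that no CCAAT overlapped. The Hbb-bh2 sequence held no capitals, and its 250-base window held 1 AGATAA, a form of the motif bound by GATA1, from -167 to -162. Other forms of that motif, such as the tgataa in the printed Hba-x line, were not searched or marked. Klf1 held a CACCC at -114 to -110 and a CCAAT at -64 to -60. Searched on both strands of the 250 bases before each start site, TGACCA stood in 11.4% of the 32851 RefSeq windows, CCAAT in 33.8%, CACCC in 52.0% and AGATAA in 9.99%. The joined TGACCAAT stood in 1.09%, or 357 windows. A window was matched for 9 of the 10 genes, 14 windows in all since Sox6 has several start sites, and Hbb-bh1 was not matched. TGACCA stood in the windows of Hbb-y and Hba-x and in no window of the other 7 matched genes. These matches describe letters in a window and not binding, which was not measured here.

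**Figure D1:**
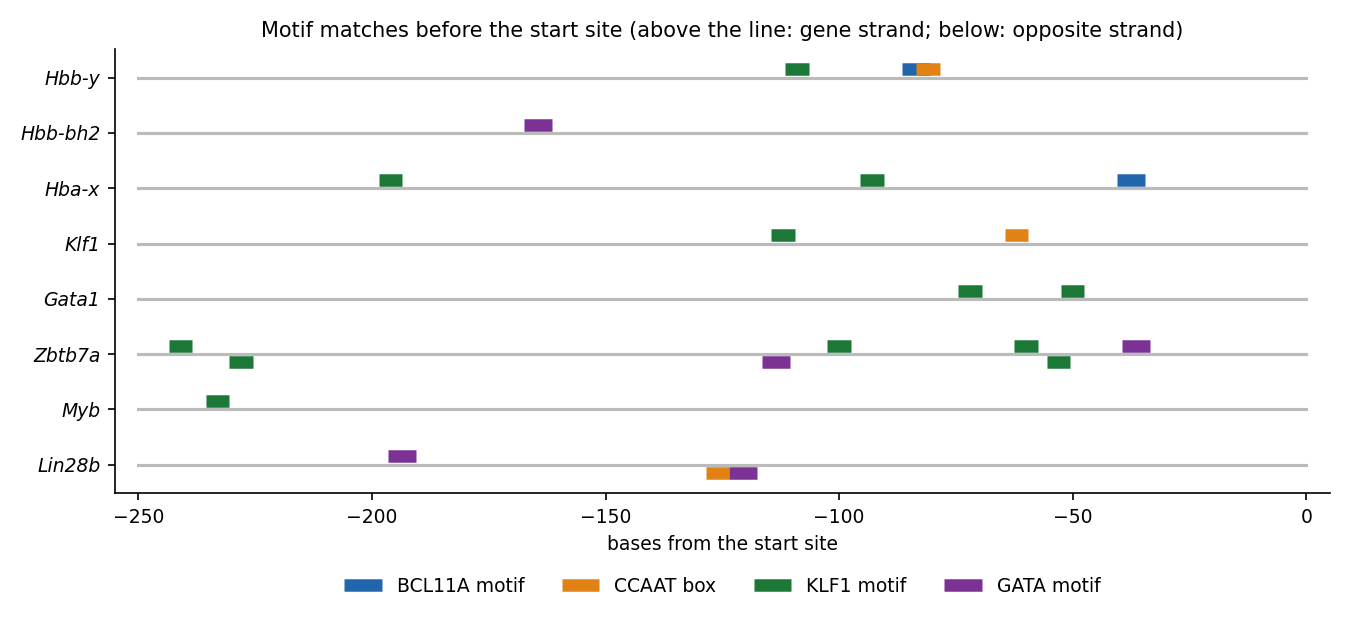
Positions of the searched motifs in the 250 bases before the start site, in bases from that site on the horizontal axis, with 1 line for each of 8 genes (Sox6, with several windows, is not drawn) and marks above the line for the gene's strand and below it for the other. TGACCA appears on the Hbb-y and Hba-x lines, and on the Hbb-y line it overlaps a CCAAT. The GATA motif drawn is AGATAA only.

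Levels are the authors' RMA values on the log2 scale, where higher values mean more hybridised RNA. RMA values have no true zero, so a background had to be found in the data. The background level of an array was taken as the 95th percentile of 1394 olfactory and vomeronasal receptor genes, which are taken to be silent in blood cells, on that same array. It lay between 4.13 and 4.77, with a mean of 4.52 ± 0.285 (SD, n = 3) in WT, 4.50 ± 0.213 in Het and 4.23 ± 0.163 in KO. The KO minus WT difference of the background itself was -0.29 (exact permutation test, two-sided, p = 0.2). The interquartile range of an array was 2.22 to 2.83, narrowest on WT replicate 1, which also had the lowest mean correlation with the others, 0.865 against 0.892 to 0.919. The number of arrays limits the precision, and 3 against 3 arrays cannot give an exact p below 0.1.

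Bcl11a, the targeted gene, is given first. It read 8.73, 8.81 and 8.38 on the WT arrays, 8.34, 8.37 and 8.89 on the Het arrays, and 7.82, 7.90 and 8.66 on the KO arrays. Replicates 1 and 2 of KO lay below all WT and Het arrays, while the array labelled KO replicate 3 lay inside the WT range. The KO arrays differed from WT by -0.51 (SE 0.288, 95% confidence interval -1.15 to 0.13, limma, Benjamini-Hochberg adjusted p = 0.655). A 2nd probe set for Bcl11a read 6.38, 8.08 and 6.93 in WT and 7.26, 6.94 and 7.39 in KO, where the groups overlapped. Where these probes lie relative to the deleted part of the gene is unknown here, so whether either probe set reads the deleted part cannot be said. For the 10 genes and the lists of the switching network, KO minus WT is given below with and without the array labelled KO replicate 3; other single genes are given with it.

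Of the 10 genes, Myb and Zbtb7a read above background on all 9 arrays, against 29.9% of all 22180 genes. Hbb-y, Hbb-bh1, Hbb-bh2 and Lin28b read above it on no array, against 40.8% of all genes, and Klf1 (7 arrays), Gata1 (2), Sox6 (1) and Hba-x (1) passed it on some. With the 99th percentile of the receptor genes as the background, Myb alone stayed above it on all 9 arrays, against 10.3% of all genes. The same held with a list of 33 genes specific to other tissues, of which 4 read above the receptor background on all 9 arrays. A more permissive reference, the highest Y-linked value on arrays of female mice (3.32), placed Klf1, Gata1, Zbtb7a, Sox6 and Myb above it on all 9 arrays, and none of the globins. A level below background does not show that a transcript is absent, only that this array cannot separate it from receptor genes. In bulk samples such as these, fewer cells of a type and less RNA per cell cannot be told apart.

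**Figure D2:**
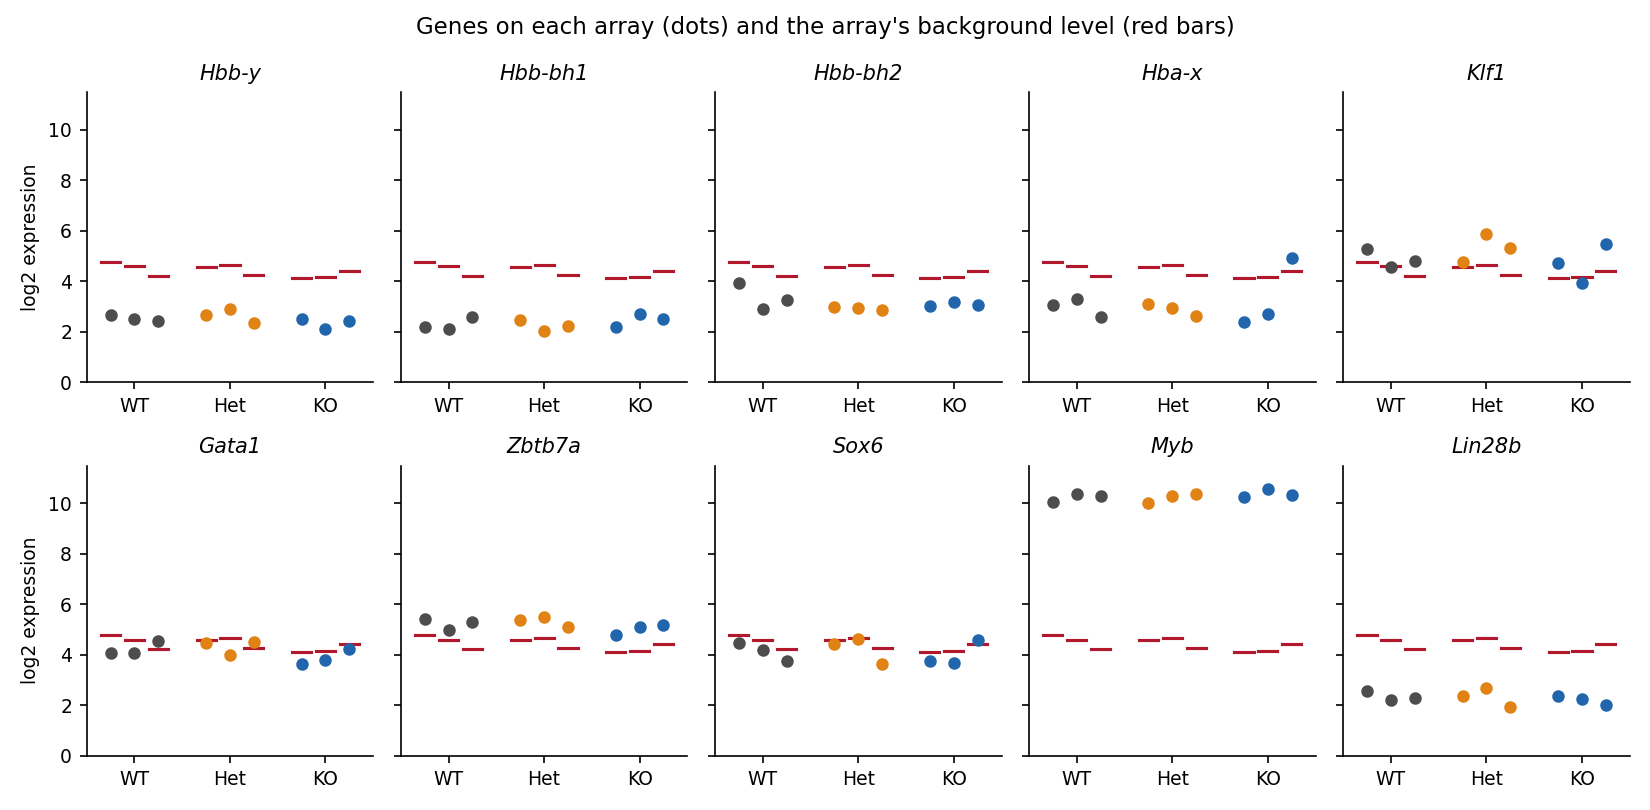
Level of each of the 10 genes on each array (log2, vertical axis) by genotype, with 1 dot per array, 3 per genotype, and a red bar at the background level of that array. Myb lies far above background on all 9 arrays, and Hbb-y, Hbb-bh1, Hbb-bh2 and Lin28b lie below it on all 9.

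The embryonic β-like globin Hbb-y, the mouse ε-like chain, was near the floor of the arrays in every genotype. It read 2.66, 2.49 and 2.41 in WT, 2.68, 2.88 and 2.36 in Het, and 2.51, 2.12 and 2.42 in KO. All 9 values lay 1.62 to 2.11 below the background of their own array, and the 3 genotypes overlapped. The means were 2.52 ± 0.128 (SD, n = 3) in WT, 2.64 ± 0.262 in Het and 2.35 ± 0.204 in KO. Between KO and WT the difference was -0.17 (exact permutation p = 0.5) and -0.21 without the array labelled KO replicate 3. The Het arrays differed from WT by 0.12 (exact permutation p = 0.6), and KO minus Het was -0.29 (exact permutation p = 0.3). In red cells Hbb-y is the classic BCL11A target.

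Hbb-bh1, the other β-like globin of primitive red cells, lay 1.44 to 2.65 below background on the 9 arrays. It read 2.20, 2.12 and 2.60 in WT, 2.47, 2.01 and 2.23 in Het, and 2.20, 2.71 and 2.5 in KO. The ranges of the 3 genotypes overlapped, with the highest value on a KO array and the lowest on a Het array. The means were 2.31 ± 0.257 in WT, 2.24 ± 0.230 in Het and 2.47 ± 0.256 in KO. In KO the difference from WT was 0.16 (exact permutation p = 0.6), and 0.15 without the array labelled KO replicate 3. Between Het and WT it was -0.07 (exact permutation p = 0.7), and KO minus Het was 0.23 (exact permutation p = 0.4). As for Hbb-y, these values lie below background, so no direction is read from them.

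Hbb-bh2, a further gene of the β-globin cluster, lay below background on all 9 arrays as well. Its values were 3.94, 2.91 and 3.26 in WT, 2.96, 2.95 and 2.87 in Het, and 3.0, 3.19 and 3.05 in KO. WT replicate 1 stood above all others, and the 3 KO values lay just above the 3 Het values without overlap. KO minus Het was 0.15 (exact permutation p = 0.1, the smallest that 3 against 3 allows). Among the 10 genes, only Hbb-bh2 had groups that did not overlap, between KO and Het, beside 9.82% of all tested genes. The corresponding shares were 13.8% for KO and WT and 8.41% for Het and WT, where the groups of all 10 genes overlapped. These shares are over genes with a mean of at least 3.31, which do not include Hbb-bh2, the other globins or Lin28b. All values of Hbb-bh2 lay 0.83 to 1.71 below background, so the KO minus Het difference concerns values in that range. Against WT the differences were -0.29 in KO (exact permutation p = 0.6; -0.28 without the array labelled KO replicate 3) and -0.44 in Het (exact permutation p = 0.3). Without WT replicate 1 they were -0.005 and -0.16, so most of both differences rests on that array.

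Hba-x, the ζ chain of primitive red cells, was low on 8 arrays and higher on 1. It read 3.07, 3.30 and 2.60 in WT, 3.10, 2.93 and 2.61 in Het, and 2.39, 2.71 and 4.94 in KO. The high value came from the array labelled KO replicate 3, where it exceeded the 95th percentile background of 4.42 but not the 99th percentile of 5.88. KO minus WT was 0.36 (exact permutation p = 0.9), and without that array it was -0.44. Het minus WT was -0.11 (exact permutation p = 0.8). On the same array the θ-like α-cluster gene Hbq1b was also at its highest (5.16, against 4.15 to 4.67 on the other 8). Hbq1b too lay below the 99th percentile there, and Hbq1a read 3.42 and stayed below background. Some genes specific to other tissues were also highest on that array, and others were not. Hba-x was low in all WT and Het arrays, and its direction in KO rests on 1 array. On the 4 arrays with the lowest background (4.13 to 4.26) Hba-x read 2.39 to 2.71, and on the other 5 (4.42 to 4.77) 2.93 to 4.94. The part of the array background in its levels was not tested.

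The adult globin genes Hba-a1, Hba-a2, Hbb-b1, Hbb-b2, Hbb-bs and Hbb-bt were not matched to a single-symbol probe set in the annotation used and are not analysed here.

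Among the factors that drive erythroid genes, Klf1, the activator that binds CACCC in the adult β-globin promoter, passed background on 7 of 9 arrays and varied widely. It read 5.27, 4.57 and 4.80 in WT, 4.75, 5.87 and 5.31 in Het, and 4.72, 3.94 and 5.46 in KO. The 3 genotypes overlapped widely, and the KO arrays held both the lowest value and one of the 3 highest. The mean was 4.88 ± 0.357 in WT, 5.31 ± 0.56 in Het and 4.71 ± 0.760 in KO. The KO arrays differed from WT by -0.17 (SE 0.410, interval -1.08 to 0.74, limma adjusted p = 0.909), -0.55 without the array labelled KO replicate 3 and 0.02 without WT replicate 1. The Het arrays differed from WT by 0.43 (interval -0.48 to 1.34, limma adjusted p = 0.992), and KO minus Het was -0.60 (interval -1.51 to 0.31, limma adjusted p = 0.998). Intervals this wide do not show that Klf1 levels were alike.

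Gata1, the GATA factor required for red cell and megakaryocyte development, lay close to background. It read 4.07, 4.08 and 4.53 in WT, 4.48, 3.97 and 4.49 in Het, and 3.62, 3.81 and 4.22 in KO, and exceeded its array's background only on WT replicate 3 and Het replicate 3. The 2 lowest values were KO arrays, though the KO range still overlapped the other groups. Between KO and WT the difference was -0.34 (SE 0.262, interval -0.92 to 0.24, limma adjusted p = 0.724), and -0.51 without the array labelled KO replicate 3. Between Het and WT it was 0.09 (interval -0.49 to 0.67), and KO minus Het was -0.43 (interval -1.01 to 0.15). The background level of the KO arrays also lay lower, by 0.29 on average. Subtracting it from each array, an alternative chosen after seeing the data, shifts every gene of an array alike, and the median KO minus WT of all genes went from -0.04 to 0.25. On that scale KO minus WT was -0.05 for Gata1.

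Of the further repressors, Zbtb7a, also known as LRF and able to silence fetal globin apart from BCL11A, exceeded background on every array by 0.38 to 1.07. It read 5.41, 4.97 and 5.28 in WT, 5.38, 5.48 and 5.10 in Het, and 4.78, 5.08 and 5.18 in KO. The 3 genotypes overlapped, with the lowest value on a KO array and the highest on a Het array. KO minus WT was -0.21 (SE 0.231, interval -0.72 to 0.31, limma adjusted p = 0.800), and -0.29 without the array labelled KO replicate 3. Het minus WT was 0.10 (interval -0.41 to 0.61), and KO minus Het was -0.31 (interval -0.82 to 0.21).

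Sox6, the SOX-family repressor that silences Hbb-y in definitive red cells, fell into separate low and high values that did not follow genotype. It read 4.46, 4.18 and 3.76 in WT, 4.43, 4.61 and 3.64 in Het, and 3.75, 3.66 and 4.57 in KO. Sox6 exceeded its array's background only on the array labelled KO replicate 3, by 0.15. The 4 arrays with the lowest background (4.13 to 4.26) gave 3.64 to 3.76, and the other 5 arrays (4.42 to 4.77) gave 4.18 to 4.61, with each genotype on both sides. Levels of Hba-x were separated between the same sets of arrays. The part of the array background in the levels of Sox6 was not tested. Since the values fall into these separate sets, no correlation is given. The KO arrays differed from WT by -0.14 (SE 0.345, interval -0.91 to 0.63, limma adjusted p = 0.912), and -0.43 without the array labelled KO replicate 3. The Het arrays differed from WT by 0.09 (interval -0.67 to 0.86), and KO minus Het was -0.23. Without WT replicate 1, KO minus WT of Sox6 was 0.02, the opposite sign.

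**Figure D3:**
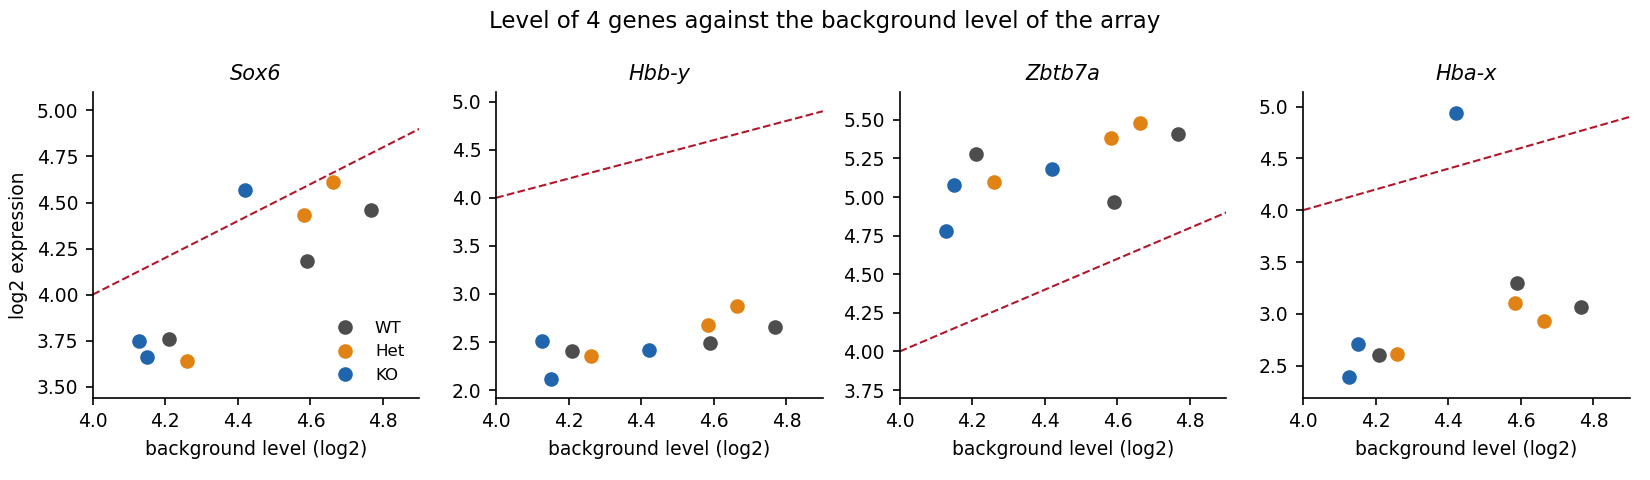
Levels of Sox6, Hbb-y, Zbtb7a and Hba-x (log2, vertical axes of different range) against the background level of the same array (log2, horizontal axis), 1 point per array in the colour of its genotype; on the dashed line the level equals the background. Sox6 lies at 3.64 to 3.76 on the 4 arrays with the lowest background and at 4.18 to 4.61 on the other 5.

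Myb, a proliferation factor of hematopoietic progenitors, was the only one of the 10 genes far above background in HSCs, by 5.29 to 6.42. It read 10.06, 10.38 and 10.30 in WT, 10, 10.30 and 10.37 in Het, and 10.27, 10.57 and 10.35 in KO. The ranges of the 3 genotypes overlapped. Between KO and WT the difference was 0.15 (SE 0.218, interval -0.33 to 0.63, limma adjusted p = 0.850), and 0.17 without the array labelled KO replicate 3. Between Het and WT it was -0.02 (interval -0.51 to 0.46), and KO minus Het was 0.17 (interval -0.31 to 0.66). A 2nd probe set read 8.25, 8.31 and 8.15 in WT and 8.29, 8.06 and 8.86 in KO, where the groups overlapped too.

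Lin28b, the RNA-binding protein that blocks let-7 maturation and is high in fetal HSCs, was near the floor. It read 2.56, 2.21 and 2.28 in WT, 2.38, 2.70 and 1.91 in Het, and 2.37, 2.25 and 2.02 in KO, 1.76 to 2.40 below background. KO minus WT was -0.14 (exact permutation p = 0.5), and -0.04 without the array labelled KO replicate 3. Het minus WT was -0.02 (exact permutation p = 1.0). Lin28b was thus not separated from background in any of the 9 adult samples.

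The genotype comparisons were tested with limma over the 16636 genes whose mean reached the 25th percentile (3.31), which kept Klf1, Gata1, Zbtb7a, Sox6 and Myb and left out the 4 globins and Lin28b. Between KO and WT 0 of these 5 genes passed an adjusted p of 0.05, against 0.0421% (7) of all tested genes; between Het and WT, and between KO and Het, 0 of 5 passed, against 0.0% of all tested genes. At an unadjusted p under 0.05, limma gave 1366, 813 and 759 genes in these comparisons, and 0 of the 5. The test of any difference among the 3 genotypes passed 0 genes in all (0.0%; 984 at an unadjusted p under 0.05), and its adjusted p for the 5 factors was between 0.898 and 0.963. KO minus WT was negative for 4 of the 5 and positive for Myb, and the median over all genes was -0.04, with 54.4% of genes lower. Het minus WT was positive for 4 of the 5, and the median over all genes was -0.01. Sex, read from sex-linked transcripts, was unbalanced: 2 WT mice, 1 Het and 1 KO were female, and the female KO was the array labelled KO replicate 3. Each sex gives KO minus WT from 3 arrays, so with no test, and the only female KO array is the one whose Bcl11a level lay inside the WT range. Of the factors above the filter, Klf1 gave 0.43 within females and -0.24 within males, Sox6 0.46 and -0.48, Gata1 -0.08 and -0.37, Zbtb7a -0.17 and -0.04, and Myb 0.17 and 0.04. Of the others, Hba-x gave 2.11 and -0.75, Hbb-bh2 -0.55 and 0.19, Lin28b -0.40 and 0.10, Hbb-y -0.12 and -0.18, and Hbb-bh1 0.10 and 0.34. The sign was the same in both sexes for Gata1, Zbtb7a, Myb, Hbb-y and Hbb-bh1, and differed for the other 5.

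**Figure D4:**
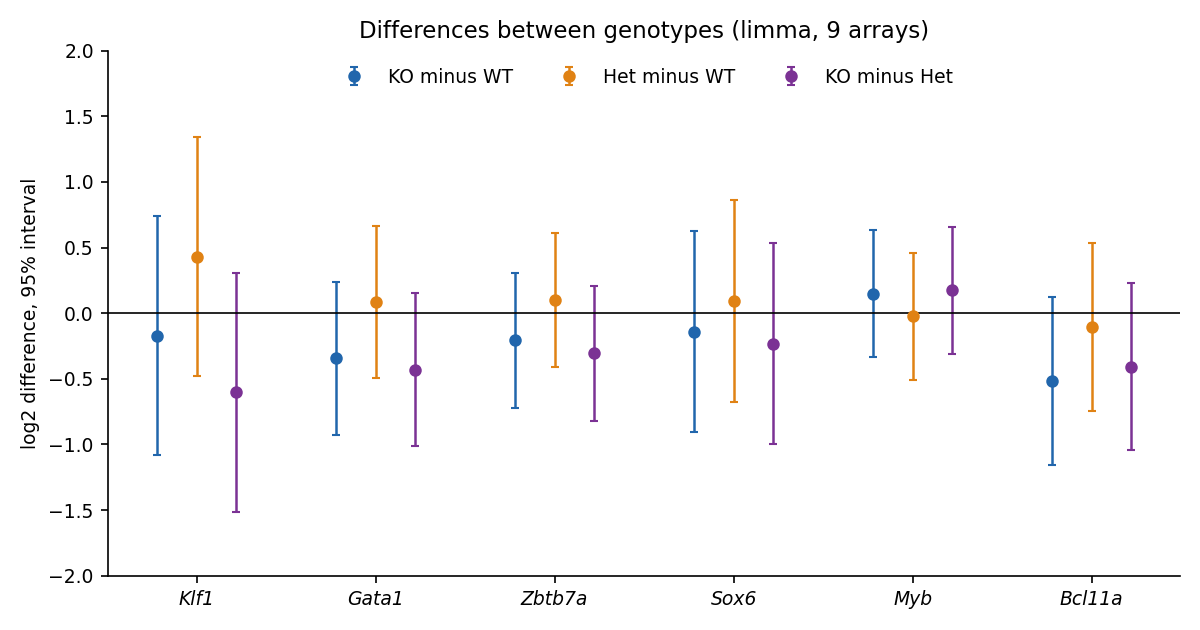
Difference in log2 level between genotypes (vertical axis) for the 5 tested factors and Bcl11a, with a point for the limma estimate and a bar for its 95% confidence interval, coloured by comparison. Every interval shown includes 0.

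The rest of the switching network is given by lists of its known genes. Of the partners of the erythroid factors, such as Gata2, Lmo2, Lyl1 and Zfpm1 (FOG-1), 12 of 12 read above background on all 9 arrays. The share over all genes was 29.9%. Tal1 passed the 99th percentile of the receptor genes on 7 arrays, Gata2, Klf3 and Lyl1 on 8, and the rest on all 9. In KO 8 of 12 were higher than in WT and 0 were called; the median difference was 0.51, beside -0.04 for all genes. Lmo2, a bridging protein of the SCL complex, read 7.72 ± 0.476 in WT and 8.60 ± 0.352 in KO (difference 0.87, limma adjusted p = 0.547). Zfpm1, the GATA1 cofactor, had group means of 7.27 ± 0.304 in WT, 8.12 ± 0.273 in Het and 7.84 ± 0.204 in KO (KO minus WT 0.58, limma adjusted p = 0.592). Gata2 read 5.13 on WT replicate 1 and 7.81 to 8.60 on the other 8 arrays. The list's median difference was 0.04 without WT replicate 1, with 7 of 12 higher, and 0.27 without the array labelled KO replicate 3, with 8 of 12 higher. With both left out it was -0.02, with 6 of 12 higher.

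Of the corepressors of fetal globin, 18 of 19 read above background on all 9 arrays, against 29.9% of all genes. They include the NuRD subunits Mta1 and Mta3 and the methyltransferase Ehmt2. The 99th percentile of the receptor genes was passed by Ehmt2 on 2 arrays, Mbd3 on 5, and Mta3 and Ehmt1 on 6. Prmt5 passed it on 7 arrays, Hdac1 and Gatad2a on 8, and the rest on all 9. The 19 include Bcl11a itself. In KO 14 of 19 were higher than in WT with a median of 0.25, and 0 were called. Ehmt2 differed by 0.59 (limma adjusted p = 0.612) and Mta1 by 0.57 (limma adjusted p = 0.662). Ehmt2 passed background on 8 arrays. It read 4.41 on WT replicate 1, where background was 4.77, and 5.10 and 5.30 on the other WT arrays. The list's median was 0.16 without WT replicate 1, with 12 of 19 higher, and 0.20 without the array labelled KO replicate 3, with 13 of 19 higher. With both left out it was 0.075, with 14 of 19 higher. The 14 other switching regulators were 7 higher and 7 lower with a median of -0.06, or 0.11 without the array labelled KO replicate 3, and 0 were called. Eif2ak1, the heme-regulated kinase, differed by 0.91 (limma adjusted p = 0.655), and Atf4, a transcription factor downstream of it, by -0.44 (limma adjusted p = 0.650). Of the Lin28 and let-7 axis, 3 of 8 measured genes were above background on all 9 arrays, and 0 of 7 tested genes were called. Its median KO minus WT difference was 0.19, and -0.02 without the array labelled KO replicate 3. Tut7, a terminal uridylyltransferase that acts on let-7 precursors, had group means of 7.99 ± 0.196 in WT, 7.43 ± 0.195 in Het and 8.11 ± 0.342 in KO.

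Genes of red cell function were mixed. Of 25 listed erythroid effector genes 19 were measured, and 8 of them were above background on all 9 arrays. In KO 9 were higher and 10 lower than in WT with a median of -0.0033, and 0 were called. Over the 18 genes then tested, that median was -0.16 without WT replicate 1 and -0.15 without the array labelled KO replicate 3. Alas2 was not matched to a single-symbol probe set and is not analysed here. Epor, the erythropoietin receptor, had group means of 4.22 ± 0.210 in WT, 4.72 ± 0.197 in Het and 4.92 ± 0.660 in KO and passed background on 6 arrays. Tspo2, an erythroid cholesterol-binding protein, read 4.37 ± 0.399 in WT and 3.54 ± 0.101 in KO (difference -0.83, limma adjusted p = 0.519) and passed background on 1 array. Car1, a carbonic anhydrase of red cells named after its values were seen, spread between 5.16 and 9.49 without an order by genotype: WT read 9.49, 7.73 and 8.81, Het 6.14, 6.93 and 8.41, and KO 9.03, 5.16 and 9.36. Between Het and WT, 0 genes of any network list were called, and the medians were 0.13 for the partners, 0.0 for the corepressors, 0.11 for the other regulators, -0.06 for the Lin28 and let-7 axis and -0.06 for the effector genes, beside -0.01 for all genes. Without WT replicate 1 these medians were -0.21, -0.02, -0.02, -0.16 and -0.14, so those of the partners and of the other regulators turned sign. The mean level over the 19 effector genes was 5.21 to 5.43 in WT, 5.09 to 5.43 in Het and 4.97 to 5.59 in KO.

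**Figure D5:**
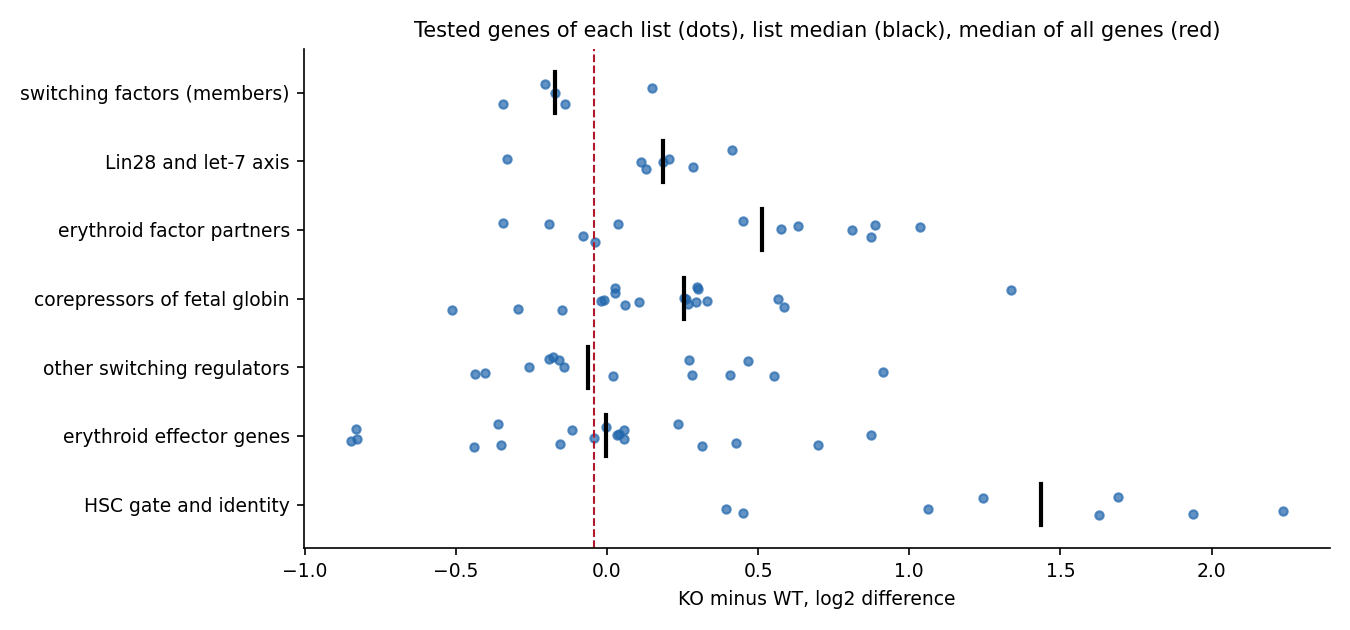
KO minus WT difference in log2 level (horizontal axis) for each tested gene of 7 lists, 1 dot per gene, with a black bar at the list median and a red dashed line at the median of all genes (-0.04). The median is 0.51 for the partners of erythroid factors, 0.25 for corepressors and -0.06 for other regulators, and 0 of the genes shown were called.

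Levels of markers of the sorted cell and of other cells are given beside these results, and 0 genes were called in any of these lists. Of 8 measured HSC gate and identity genes 5 were above background on all 9 arrays. In KO 8 of 8 were higher than in WT (median 1.44, and 1.55 without the array labelled KO replicate 3). Without WT replicate 1 the median was 1.09, with 7 of 8 higher, and with both arrays left out it was 1.18. The mean of this list was 5.43 to 6.62 in WT, 6.83 to 7.20 in Het and 7.05 to 7.69 in KO. Of 8 granulocyte and monocyte markers 4 were above background on all 9 arrays. The mean of this list was 6.13 to 6.47 in WT, 5.62 to 6.46 in Het and 5.01 to 5.57 in KO. Its median KO minus WT was -0.38, with 7 of 8 lower. It was -0.60 without WT replicate 1 and -0.59 without the array labelled KO replicate 3, each with 7 of 8 lower. S100a8 (-3.86), S100a9 (-1.99) and Lyz2 (-1.03) differed most, and Prtn3 was higher in KO (0.50). On the KO arrays S100a8 read 5.34, 6.74 and 2.31, the last on the array labelled KO replicate 3. Of 7 lymphoid markers 6 were above background on no array, and of 5 mast cell and basophil markers 3. Nkg7, the other lymphoid marker, was above it on all 9 arrays. Its mean was 6.67 ± 1.05 in WT, 6.17 ± 0.488 in Het and 4.91 ± 0.146 in KO. Of 5 megakaryocyte markers 4 were above background on all 9 arrays. The median KO minus WT of these 5 was 0.71, with 3 higher and 2 lower. It was 0.44 without WT replicate 1 and 0.93 without the array labelled KO replicate 3. Of the 2 genes the gate excludes, Cd48 and Flt3, neither was above background on all 9 arrays. Cd48 passed it on 4 arrays. Flt3 passed it on 2 WT arrays and on no Het or KO array (KO minus WT -1.06). The part of these marker levels in the results for the globins and their regulators was not tested.

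The genes whose level followed Zbtb7a most closely over the 9 arrays were Trp73 (Pearson r = 0.959) and Phlda3 (0.956), and those that followed Myb were Lrch1 (0.967) and Glb1l (0.944). These were the 2 highest of all tested genes for each, the points share the arrays' normalization, and the ranking is a description. Trp73 read 3.54 to 4.49, Phlda3 4.18 to 5.08 and Glb1l 4.19 to 5.96, so their values reached into the range of the background level (4.13 to 4.77). Lrch1 read 5.25 to 7.19.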

How the data were processed

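The values are log2 levels per probe set from 9 Affymetrix Mouse Gene 2.0 ST arrays, deposited by the authors and made with RMA, per the submitters' processing notes; RNA was amplified with the NuGEN Ovation Pico kit, per the labels' protocols. The RMA version, its settings and the build behind the array annotation are unknown here. RMA compresses differences of dim transcripts. Of 41345 probe sets, 23521 had 1 gene symbol, and 22180 genes were kept. The genes and lists were chosen with earlier results of these data known. Named genes were the 10 described, Bcl11a, up to 4 per list by smallest F-test p, adult globins, Epor and Alas2, and the 2 genes most correlated with each of the 10 that lay above background on all arrays. Group means were tested with limma 3.58.1 in R 4.3.3 over 16636 genes at an adjusted p under 0.05, with exact permutation tests for single genes. In each of 10 simulations for KO minus WT, 200 genes were raised in KO. They were drawn from all 22180 genes before the filter, which left 16635 for the test. Of changes of size 1 (log2) 12.0% were recovered, of size 2 65.4% and of size 3 87.0%, with 6 false calls per simulation on average. Values were drawn independently for each gene, so effects shared by the genes of an array were not simulated. Changed genes that the filter left out counted as not recovered. Alternatives changed the filter, samples, block, probe sets, sex term, normalization, array weights, background reference and replicates. The same number on arrays of different groups is not stated to mark a shared animal or batch.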

Additional observations from a re-analysis of the deposited data

Results flagged for a closer look

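Among 13 genes checked over all 9 arrays (each genotype has 3, too few to check alone), 2 had 1 array set apart by more than 0.493 of the range, the 95% critical value for 9 values; chance alone gives this in about 1 in 20 sets. Hbb-bh2 read 3.94 on WT replicate 1, a gap of 0.636 of the range, and this value lay below that array's background. Hba-x read 4.94 on the array labelled KO replicate 3, a gap of 0.643 of the range, above the 95th percentile background of that array.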

How the results depend on the processing

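The 7 genes called between KO and WT became 4 with a filter at the median, 1 with only the 2 groups fitted, 3 with sex as a term, 3 after quantile normalization, 24 with array weights, and 0 to 15 when 1 array was left out; they became 2 without both WT replicate 1 and KO replicate 3 and 0 after subtracting each array's background, alternatives added after seeing the data. With the replicate number as a block they became 0; same-numbered arrays correlated from -0.185 to 0.229, no array correlated best with its own number in both other groups, and the numbers were not taken to pair the samples. The test of any difference called 0 genes, 8 with array weights and 0 to 2 with 1 array left out. Genes of the 10 above background numbered 2, 1 with the 99th percentile, 1 with genes of other tissues and 5 with Y-linked genes. No alternative called any of the 5 tested factors (279 values, smallest limma adjusted p 0.466). The sign of Klf1 KO minus WT turned with sex as a term (0.0039). Subtracting each array's background moves all genes alike (all-gene median KO minus WT -0.04 to 0.25, KO minus Het -0.02 to 0.25); this fixed shift turned KO minus WT of Klf1 (0.12), Zbtb7a (0.083) and Sox6 (0.15) and KO minus Het of Sox6 (0.037), and says nothing particular to them. Leaving out 1 array gave Klf1 KO minus WT -0.55 to 0.21, Sox6 KO minus WT -0.43 to 0.027, Sox6 Het minus WT -0.10 to 0.39, Gata1 Het minus WT -0.0017 to 0.26, Zbtb7a Het minus WT -0.025 to 0.21 and Myb Het minus WT -0.12 to 0.088. The cause of the other changes was not tested. Signal below background limits the 4 globins and Lin28b. It also limits Gata1, which passed background on 2 arrays, and Sox6, which passed it on 1.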
